A study of Mus musculus with 17 samples.

Results

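Red cell precursors in bone marrow are known by a small set of membrane, enzyme and transporter genes, and 8 of these (Slc4a1, Kel, Ermap, Aqp1, Cldn13, Alas2, Car1 and Car2) were followed here across sorted myeloid cells of mice with and without a mammary tumor. They were taken by name from a table of raw counts, and all 8 had a row among the 10207 rows that carry a gene symbol. All 17 libraries of the study come from BALB/c mice, the injected ones being females, and 11 of them, those of batch 1 in the labels, could be read by gene. Tumor-associated macrophages (TAM, 3 libraries, label age 8 weeks) were CD11b+ Gr1- F4/80+ cells sorted from tumors that had grown from 100000 4T1-luc cells (a mouse mammary carcinoma line that makes luciferase) placed in a mammary fat pad. Marrow cells of mice with such a tumor (BMDM_T, 4 libraries, label age 8 weeks) were sorted from flushed tibia and femur as CD11b+ Gr1+ F4/80low cells. The same gate in untreated mice gave BMDM_H (4 libraries, label age 12 weeks). Marrow of both groups had gone through a red blood cell lysis step, per the labels' protocols. The treatment protocol also gives 8 weeks as the age at injection, and the design text speaks of age-matched healthy mice. Tumor and label age change together between BMDM_T and BMDM_H, so their effects cannot be told apart. No label ties a replicate to a mouse of its own, so the p-values below rest on a spread between libraries that could be technical.

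Red cell precursors, or erythroblasts, mature in the marrow in clusters around a central macrophage, the erythroblastic island. On the way to a reticulocyte they fill with hemoglobin, whose heme is made along a pathway that opens with aminolevulinate synthase, and they build the membrane proteins that later carry water, anions and carbon dioxide in blood. The transcription factors GATA1 and KLF1 and signaling through the erythropoietin receptor drive this program. The CD11b, Gr1 and F4/80 gate was not set for red cell precursors, and the labels call the marrow cells monocytes.

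Total counts ran from 1748338 to 3747929 in TAM libraries, from 931278 to 1218977 in BMDM_T libraries and from 387940 to 1286844 in BMDM_H libraries. Levels are given as CPM, counts brought to the same library total by use of edgeR's TMM factors, with the standard deviation (SD) over libraries, and levels of single genes are compared between groups, not with one another. The tests are edgeR's quasi-likelihood tests over 7518 genes in all 11 libraries, with Benjamini-Hochberg adjusted p-values and a threshold of 0.05. Of the 7518 genes, 4.82% passed in BMDM_T against BMDM_H, and 2.00% passed as lower. The marrow cells were checked against markers of more than 1 myeloid type. A list of 14 neutrophil granule genes summed to 189159 ± 16399 CPM in BMDM_T and 182198 ± 31086 in BMDM_H, while 12 monocyte genes summed to 2305 ± 229 CPM in BMDM_T and 3919 ± 932 in BMDM_H (SD, n = 4 each). In TAM, 12 monocyte genes summed to 8258 ± 1169 CPM (SD, n = 3).

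Little of the red cell precursor signal was found in the sorted marrow cells of tumor-bearing mice. The 8 genes gave 68 counts over the 4 BMDM_T libraries, against 688 over the 4 BMDM_H libraries. Red cell precursors in unsorted marrow were not measured. Each of the 8 genes had counts in each of the 4 BMDM_H libraries. Summed over the 8 genes, the level was 12.8, 30.02, 10.3 and 9.84 CPM in BMDM_T replicates 1 to 4, against 75.8, 241, 258 and 387 CPM in BMDM_H replicates 1 to 4. No BMDM_T library reached the lowest BMDM_H library. TAM libraries summed to 14.3, 13.7 and 15.9 CPM, and most of that was Ermap. Without Ermap, the other 7 genes summed to 4.36 ± 2.04 CPM in TAM (SD, n = 3), 15.5 ± 9.19 CPM in BMDM_T and 224 ± 115 in BMDM_H (SD, n = 4 each). These sums describe the libraries and were not tested. In bulk samples, fewer cells of a type and less RNA per cell cannot be told apart.

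**Figure D1:**
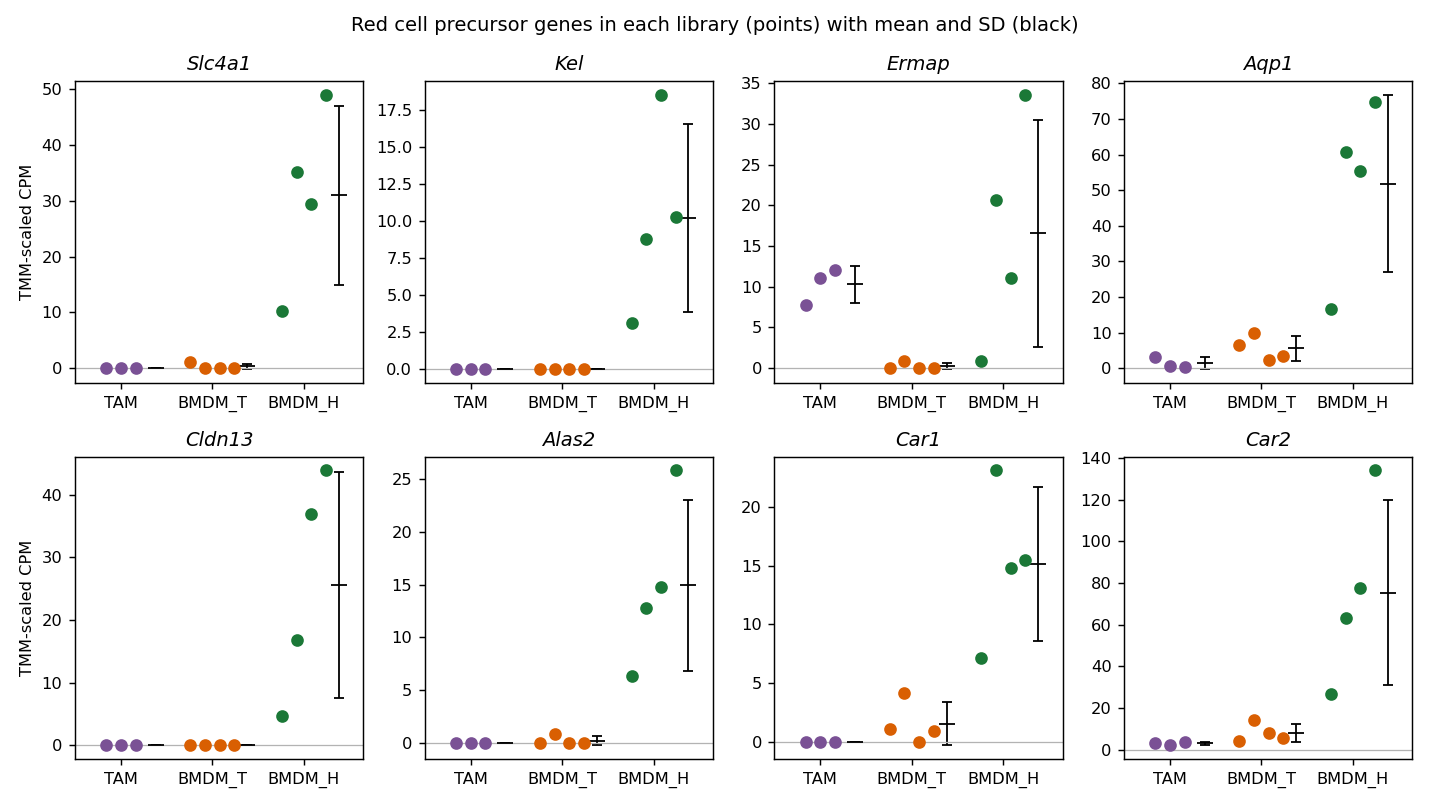
Level of each of the 8 genes in each library, in TMM-scaled CPM on a linear axis of its own per gene, for TAM (3 libraries), BMDM_T (4) and BMDM_H (4), points in replicate order, with the mean and SD in black. The BMDM_H points stand above the BMDM_T points for 7 genes, and for Ermap BMDM_H replicate 1 (0.790 CPM) lies just under BMDM_T replicate 2 (0.834 CPM), with the TAM points between 7.72 and 12.0 CPM.

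All 8 genes passed the low-count filter and all 8 were lower in BMDM_T than in BMDM_H, with libraries that did not overlap for 7 of them, beside 2.00% of all tested genes called lower and 5.21% with libraries that did not overlap in that direction. The filter asked for 8.6 CPM in at least 3 libraries, and Slc4a1, Kel, Cldn13, Alas2 and Car1 met it through BMDM_H libraries alone. Ermap met it in 2 TAM and 3 BMDM_H libraries, and Aqp1 and Car2 in 1 BMDM_T and 4 BMDM_H libraries each. None of the 8 would have met it without BMDM_H. A difference was thus built into their entry, and the count is no support of its own. The median log2 fold change of all tested genes was -0.02. Without that filter 8 of the 8 were called lower as well, given here without the share of all genes called in that fit. The 8 genes were chosen with earlier results of these data known, so this count is no support either. When BMDM_H replicate 2, 3 or 4 was left out, the filter removed Kel, Cldn13, Alas2 and Car1, and the other 4 were called lower. What follows takes the genes by role, from membrane proteins to enzymes.

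Slc4a1 encodes band 3, the anion exchanger that swaps chloride for bicarbonate across the red cell membrane and anchors the membrane skeleton. It had 1, 0, 0 and 0 counts in BMDM_T replicates 1 to 4, against 13, 44, 16 and 19 counts in BMDM_H replicates 1 to 4. As levels, these were 0.267 ± 0.534 CPM in BMDM_T and 30.99 ± 16.1 in BMDM_H (SD, n = 4 each). A single read stood against 92, and the ratio of the summed counts, higher over lower and scaled for depth, was 110 with a 95% exact counting interval of 19.3 to 4394. The fitted log2 fold change was -6.89 ± 0.85 SE (adjusted p = 5.78e-05, edgeR). Intervals here and below cover counting error only.

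Kel encodes the protein of the Kell blood group, a zinc endopeptidase at the red cell surface. It had 0 counts in each of the BMDM_T libraries, against 4, 11, 10 and 4 counts in BMDM_H replicates 1 to 4. BMDM_H levels were 3.16, 8.78, 18.5 and 10.3 CPM, and the counts pooled over these libraries came to 8.41 CPM. Against a floor of 3 counts pooled over the BMDM_T libraries, or 0.727 CPM, Kel was at least 11.6-fold lower in BMDM_T (adjusted p = 0.00519, edgeR). Without BMDM_H replicates 3 and 4 but with the same genes tested, its adjusted p was 0.0505 (edgeR). Such bounds, here and below, leave out counting error in the higher group and the spread between its libraries. Cldn13, a rodent claudin known from mouse erythroblasts, was at 0 in BMDM_T in the same way. BMDM_H replicates 1 to 4 had 6, 21, 20 and 17 Cldn13 counts, or 25.6 ± 18.0 CPM (SD, n = 4). From the pooled BMDM_H level of 18.6 CPM, BMDM_T was at least 25.5-fold lower against the same floor (adjusted p = 0.00164, edgeR). Of 22 other claudins 3 had a row, and the 1 that passed the filter, Cldn15, had 98.2 CPM in BMDM_T and 104 in BMDM_H and was not called.

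Ermap encodes the erythroblast membrane-associated protein, which in humans carries the Scianna blood group antigens. It had 0, 1, 0 and 0 counts in BMDM_T replicates 1 to 4, against 1, 26, 6 and 13 counts in BMDM_H replicates 1 to 4. BMDM_H replicate 1 thus sat with the BMDM_T libraries, and the groups overlapped. The log2 fold change was -5.89 ± 1.15 SE (adjusted p = 0.00368, edgeR), and with limma-voom the adjusted p was 0.110. The ratio of summed counts was 55.0, with a 95% exact counting interval of 9.40 to 2220.

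Aqp1 encodes the water channel that carries the Colton blood group in humans, and it is also found in endothelium and kidney. Its level was 6.41, 10.01, 2.29 and 3.58 CPM in BMDM_T replicates 1 to 4, against 16.6, 60.6, 55.4 and 74.9 CPM in BMDM_H replicates 1 to 4. Each BMDM_H library lay above each BMDM_T library, and Aqp1 was 8.52-fold lower in BMDM_T (log2 fold change -3.09 ± 0.50 SE, adjusted p = 7.42e-04, edgeR). Of 10 other aquaporins only Aqp9, which also passes glycerol, had a row. It had 15.3 CPM in BMDM_T and 16.2 in BMDM_H and was not called. Of 15 endothelial markers 8 had a row, and they summed to 43.3 CPM (37.4 to 51.7) in BMDM_T and 41.7 (35.1 to 45.5) in BMDM_H. Both that passed the filter were not called by edgeR, DESeq2 or limma-voom, and 1 had an unadjusted p under 0.05.

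Alas2 is the erythroid form of aminolevulinate synthase, the enzyme that opens heme synthesis in red cell precursors. It had 0, 1, 0 and 0 counts in BMDM_T replicates 1 to 4, against 8, 16, 8 and 10 counts in BMDM_H replicates 1 to 4. Its level was 0.208 ± 0.417 CPM in BMDM_T and 14.9 ± 8.11 in BMDM_H (SD, n = 4 each), with a log2 fold change of -5.76 ± 0.91 SE (adjusted p = 7.85e-04, edgeR). The housekeeping form Alas1, named after its values had been seen, had 309 ± 24.7 CPM in BMDM_T and 205 ± 43.9 in BMDM_H (SD, n = 4 each) and was not called (log2 fold change 0.57 ± 0.17 SE, adjusted p = 0.0662, edgeR). Of 12 other heme synthesis genes 11 were tested and 0 passed with edgeR, DESeq2 or limma-voom, while 1 had an unadjusted p under 0.05. Of these 11 genes 9 had a fold change below 0, and the median log2 fold change was -0.28. On the genome Alas2 is spanned by Apex2 on the opposite strand. Whether counting used strand is not given in the sources used here, and without strand the reads of both genes cannot be told apart. Apex2 had 14.6 ± 3.55 CPM in BMDM_T and 8.63 ± 4.71 in BMDM_H (SD, n = 4 each) and was not called (adjusted p = 0.194, edgeR).

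Car1 and Car2 encode cytosolic carbonic anhydrases, which convert carbon dioxide and bicarbonate into each other, and osteoclasts use the Car2 product as well. Car1 had 1, 5, 0 and 1 counts in BMDM_T replicates 1 to 4, against 9, 29, 8 and 6 counts in BMDM_H replicates 1 to 4. That was 1.53 ± 1.82 CPM in BMDM_T and 15.1 ± 6.55 in BMDM_H (SD, n = 4 each), 8.99-fold lower (log2 fold change -3.17 ± 0.64 SE, adjusted p = 0.00604, edgeR). Without BMDM_T replicate 2, which held 5 of the 7 counts, the log2 fold change was -4.47, and without BMDM_H replicate 2, with the same genes tested, the adjusted p was 0.0537. Car2 had a count in every BMDM_T library and stood at 4.27, 14.2, 8.02 and 5.37 CPM in BMDM_T replicates 1 to 4, against 26.8, 63.0, 77.5 and 134 CPM in BMDM_H replicates 1 to 4. The groups did not overlap, and Car2 was 8.54-fold lower in BMDM_T (log2 fold change -3.09 ± 0.43 SE, adjusted p = 1.31e-04, edgeR). Of 14 other carbonic anhydrases 6 had a row, and the 1 that was tested, Car9, had 3.98 CPM in BMDM_T and 4.86 in BMDM_H and was not called. Of 7 osteoclast markers with a row 5 were tested and 0 passed with edgeR, DESeq2 or limma-voom (1 at an unadjusted p under 0.05). They summed to 125 CPM (105 to 134) in BMDM_T and 141 (115 to 165) in BMDM_H. The ubiquitous anion exchanger Slc4a2, a relative of Slc4a1, had 70.9 CPM in BMDM_T and 64.5 in BMDM_H and was not called.

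**Figure D2:**
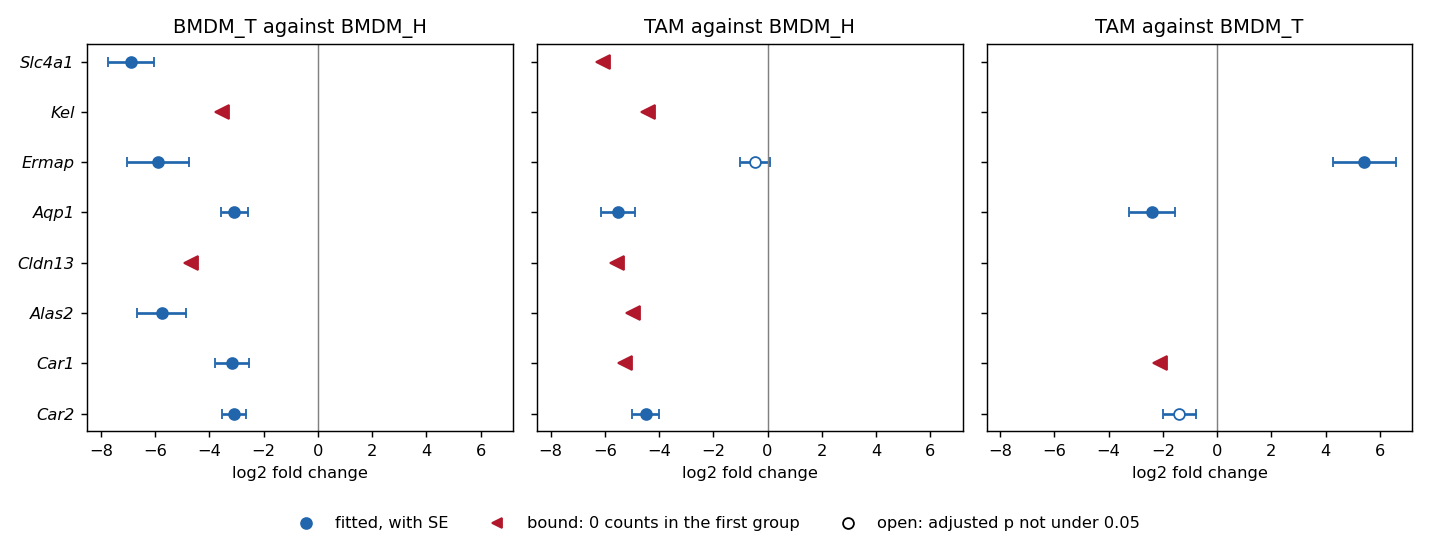
Log2 fold change of each of the 8 genes in BMDM_T against BMDM_H, TAM against BMDM_H and TAM against BMDM_T, with bars for the SE, triangles for bounds where the first group had 0 counts, and open symbols where the adjusted p was not under 0.05. No symbol is drawn where both groups were at or under the floor of 3 counts, which holds for Slc4a1, Kel, Cldn13 and Alas2 in TAM against BMDM_T, and Ermap alone lies right of 0, at 5.43 in that panel.

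All 8 are protein-coding genes, placed here on GRCm38 (mm10) with the GENCODE M21 annotation. Slc4a1 lies on chromosome 11 (102348824 to 102366203, minus strand), Kel on chromosome 6 (41686330 to 41704339, minus strand) and Ermap on chromosome 4 (119175457 to 119190011, minus strand). Aqp1 is also on chromosome 6 (55336432 to 55348555, plus strand), Cldn13 on chromosome 5 (134914249 to 134915526, minus strand) and Alas2 on chromosome X (150547375 to 150570638, plus strand). Car1 (14766216 to 14808368, minus strand) and Car2 (14886273 to 14900770, plus strand) are neighbors on chromosome 3, with 77904 bases between them, and they are read away from each other. For reads that fall near transcript ends, as in these 3′-end libraries, shared sequence matters. Of 808 runs of 31 bases in the last 500 bases of Car1 transcripts, 155 also occur in the predicted gene Gm5843, so Car1 is less certain than the others. For Ermap 17 of 2464 such runs were shared with other genes, and for the other 6 genes 0 were shared. Within its span Kel shares 3547 bases with Gm37527 and Car1 shares 219 bases with the pseudogene Gm16399, both on the same strand, and the part of these in the counts was not tested.

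Promoters are shown as background, since GATA1 is a main regulator of the red cell program. Any part of GATA1 in the differences above was not tested. RefSeq windows on GRCm38.p6, from 250 bases before to 50 bases after the gene start, matched 4 of the 8 genes: Kel (chr6:41704326-41704575 for the part printed, minus strand), Ermap (chr4:119189996-119190245, minus strand), Alas2 (chrX:150547167-150547416, plus strand) and Aqp1 (chr6:55336049-55336298, plus strand). The 250 bases before the start are printed 5′ to 3′ on the gene's strand, and capitals mark the letters AGATAA or TGATAA, or their reverse complements TTATCT and TTATCA.
Kel: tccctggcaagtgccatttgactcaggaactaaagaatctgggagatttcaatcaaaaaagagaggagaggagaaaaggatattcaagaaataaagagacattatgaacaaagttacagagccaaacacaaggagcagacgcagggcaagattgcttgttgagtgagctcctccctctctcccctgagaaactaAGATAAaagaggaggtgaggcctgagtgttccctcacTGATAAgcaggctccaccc
Ermap: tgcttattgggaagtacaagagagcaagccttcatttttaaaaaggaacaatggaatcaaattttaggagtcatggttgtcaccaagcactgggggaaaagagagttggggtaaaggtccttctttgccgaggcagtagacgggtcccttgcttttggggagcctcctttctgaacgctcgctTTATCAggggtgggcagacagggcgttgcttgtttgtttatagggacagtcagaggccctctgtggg
Alas2: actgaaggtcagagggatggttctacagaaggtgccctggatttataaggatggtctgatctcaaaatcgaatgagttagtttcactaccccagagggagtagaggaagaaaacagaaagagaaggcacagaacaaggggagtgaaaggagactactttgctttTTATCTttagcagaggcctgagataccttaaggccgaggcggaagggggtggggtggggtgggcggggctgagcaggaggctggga
Aqp1: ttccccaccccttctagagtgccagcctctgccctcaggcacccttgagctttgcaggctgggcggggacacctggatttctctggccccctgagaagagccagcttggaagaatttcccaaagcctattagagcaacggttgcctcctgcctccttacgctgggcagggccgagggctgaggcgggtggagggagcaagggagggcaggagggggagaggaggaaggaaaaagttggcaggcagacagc
Kel held a pair of GATA matches, at -56 to -51 and -19 to -14 from the start, while Ermap held 1 at -67 to -62 and Alas2 held 1 at -86 to -81, both on the other strand. Aqp1 held 0. Of all 32851 windows in the RefSeq table, 18.6% held such a match on either strand. The KLF-type letters CCACACCC or CCGCACCC were found on either strand in 0 of the 4 windows and in 5.31% of all windows. These are letter matches and not binding sites, and a window without a match says only that the letters are not in it.

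Among healthy marrow libraries the level of these genes varied several-fold. BMDM_H replicate 1 was lowest for 8 of the 8 genes, and replicate 4 was highest for 6 of them. The highest library stood 3.26-fold above the lowest for Car1, 4.09-fold for Alas2, 4.52-fold for Aqp1, 4.78-fold for Slc4a1, 5.00-fold for Car2, 5.84-fold for Kel, 9.26-fold for Cldn13 and 42.5-fold for Ermap. Library totals ran the other way, with 1286844 counts in replicate 1, 1127552 in replicate 2, 556565 in replicate 3 and 387940 in replicate 4, and the part of depth in this order was not tested. The low reading of replicate 1 rests on 96 counts over the 8 genes, against 302 in replicate 2, 140 in replicate 3 and 150 in replicate 4.

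The share of the 8-gene counts that each gene took was set side by side among these libraries. Of the counts of the 8 genes, Car2 took 35.4% in BMDM_H replicate 1 (95% Clopper-Pearson interval 25.9 to 45.8%), 26.2% in replicate 2 (21.3 to 31.5%), 42 of 140 counts in replicate 3 (22.6 to 38.3%) and 34.7% in replicate 4 (27.1 to 42.9%). Aqp1 took 21.9, 25.2, 21.4 and 19.3% and Slc4a1 13.5, 14.6, 11.4 and 12.7% in replicates 1 to 4. Other shares moved more, with 6.25, 6.95, 14.3 and 11.3% for Cldn13, 4.17, 3.64, 7.14 and 2.67% for Kel and 9.38, 9.60, 5.71 and 4.00% for Car1. For these 6 genes and Alas2 the intervals of the libraries overlapped, which does not show that the shares were alike. Ermap differed, with 1.04% in replicate 1 (0.0264 to 5.67%) and 8.61% in replicate 2 (5.70 to 12.4%), intervals that do not meet.

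**Figure D3:**
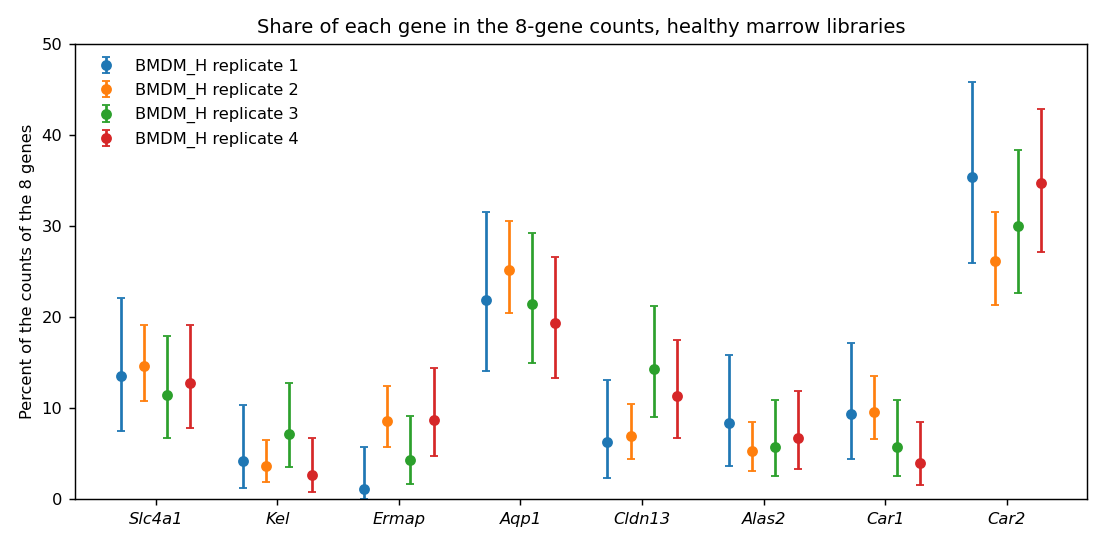
Percent of the counts of the 8 genes that each gene took in the 4 BMDM_H libraries (one color per replicate), with 95% Clopper-Pearson intervals that cover counting error only. The intervals of the libraries overlap for each gene but Ermap, which in replicate 1 (1.04%) stands under its share in replicate 2 (8.61%).

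Among marrow libraries of tumor-bearing mice, replicate 2 held the most of this signal, with 36 counts over the 8 genes and 5 genes detected. Replicates 1, 3 and 4 had 12, 9 and 11 counts with 4, 2 and 3 genes detected. Car2 and Aqp1 were the only genes with a count in all 4 BMDM_T libraries. Single counts of Slc4a1, Ermap and Alas2 lie at or under the floor of 3 counts, which is 2.50 to 3.44 CPM per BMDM_T library.

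Macrophages from tumors lacked most of these genes altogether. Slc4a1, Kel, Cldn13, Alas2 and Car1 had 0 counts in each of the 3 TAM libraries, a limit of 0.394 CPM for 3 counts over the group. TAM was compared with the same BMDM_T and BMDM_H libraries as above, so these comparisons share samples and are given side by side. Against BMDM_H, TAM was lower for 7 of the 8 genes, beside 28.3% of all tested genes called lower, and Ermap was not called. None of these 7 genes reached the filter level in a TAM library, and all met the filter through BMDM_H. A difference was thus built into their entry here too, and the count is no support of its own. The falls were at least 67.8-fold for Slc4a1, 21.4-fold for Kel, 47.2-fold for Cldn13, 30.9-fold for Alas2 and 38.3-fold for Car1, each for the pooled BMDM_H counts against that floor, with adjusted p-values of 2.18e-07, 7.21e-05, 2.11e-05, 2.31e-06 and 2.37e-06 (edgeR). Aqp1 had 3.31, 0.526 and 0.256 CPM in TAM replicates 1 to 3, and its log2 fold change against BMDM_H was -5.50 ± 0.63 SE (adjusted p = 3.55e-07, edgeR), with -7.14 without TAM replicate 1 and -4.69 without TAM replicate 3. Car2 had 3.31, 2.10 and 3.58 CPM in TAM replicates 1 to 3, and its log2 fold change against BMDM_H was -4.49 ± 0.49 SE (adjusted p = 1.43e-07, edgeR).

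Against BMDM_T, where levels were low already, TAM was lower for 2 genes and higher for 1, beside 28.8% of all tested genes called lower and 30.1% called higher. Car1 was at least 4.31-fold lower (adjusted p = 0.0104, edgeR), with 0 counts in TAM and 7 in BMDM_T, or 1.70 CPM for the pooled BMDM_T counts. Its libraries overlapped because BMDM_T replicate 3 was also at 0. Aqp1 had a log2 fold change of -2.41 ± 0.84 SE (adjusted p = 0.0188, edgeR). Both calls were lost without BMDM_T replicate 2 (adjusted p = 0.0827 for Car1 and 0.0984 for Aqp1), and Aqp1 also without TAM replicate 3 (0.117) and, with the same genes tested, without TAM replicate 2 (0.0508). Car2 did not pass in TAM against BMDM_T (log2 fold change -1.39 ± 0.60 SE, adjusted p = 0.0533, edgeR), although the libraries did not overlap, and it passed with DESeq2 (0.0274) and without BMDM_H replicate 1 (0.0166).

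Ermap was the exception in tumors. TAM replicates 1 to 3 had 14, 21 and 47 Ermap counts, or 7.72, 11.05 and 12.02 CPM, against 0, 0.834, 0 and 0 CPM in BMDM_T replicates 1 to 4 and 0.790, 20.7, 11.1 and 33.6 CPM in BMDM_H replicates 1 to 4. TAM lay above each BMDM_T library, with a log2 fold change of 5.43 ± 1.16 SE (adjusted p = 4.74e-04, edgeR), and within the range of BMDM_H. Against BMDM_H the log2 fold change was -0.46 ± 0.55 SE (adjusted p = 0.5003, edgeR), which does not show that the levels are alike. That value was 0.53 with limma-voom and 0.08 with replicate number as a block, and without BMDM_H replicate 1 it was -1.01 with an adjusted p of 0.0392. In order of mean level, BMDM_H and TAM were not told apart beyond their spread for Ermap, with BMDM_T lowest, while for Aqp1 and Car2 the order was BMDM_H, BMDM_T and TAM.

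Other red cell genes were read from 6 lists that together hold 90 genes beside the 8, of which 59 had a row and 44 passed the filter. In BMDM_T against BMDM_H 7 were lower and 0 higher, beside 2.00% of all tested genes called lower and 2.82% called higher. Without BMDM_H replicate 2, 3 or 4 2, 3 and 3 were called lower, and with the genes of the full fit kept 6, 7 and 7 were. Their median log2 fold change was -0.39 and 34 of the 44 lay below 0, against a median of -0.02 over all genes. Of the 7 called, 4 met the filter through BMDM_H libraries alone. The globin list had 10 entries and 0 with a row of that symbol, so hemoglobin transcripts were not analysed here.

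The regulators Klf1, an erythroid transcription factor, and Epor, the erythropoietin receptor, were among the 7. Klf1 had 0, 1.67, 0 and 0 CPM in BMDM_T replicates 1 to 4, against 3.16, 9.57, 9.23 and 10.3 CPM in BMDM_H replicates 1 to 4 (log2 fold change -3.95 ± 0.91 SE, adjusted p = 0.0125, edgeR). Epor had 0, 0, 2.29 and 0 CPM in BMDM_T replicates 1 to 4, against 4.74, 12.0, 12.9 and 33.6 CPM in BMDM_H replicates 1 to 4 (-4.76 ± 0.92 SE, adjusted p = 0.00343, edgeR). Lmo2, a partner of GATA1 that other blood lineages also express, averaged 29.1 CPM in BMDM_T and 63.7 in BMDM_H (adjusted p = 0.00312, edgeR). Gata1 itself, named after its values had been seen, was at 2.09 CPM in BMDM_T and 9.96 in BMDM_H and did not pass (-2.06 ± 0.61 SE, adjusted p = 0.0575, edgeR).

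The remaining 4 belong to the membrane and to late maturation. The Rh blood group gene Rhd averaged 0.912 CPM in BMDM_T and 16.0 in BMDM_H (log2 fold change -3.89 ± 0.79 SE, adjusted p = 0.00635, edgeR). Hemgn, a nuclear protein of blood precursors, averaged 0.742 CPM in BMDM_T and 11.7 in BMDM_H (-3.84 ± 0.76 SE, adjusted p = 0.00519, edgeR). Tmcc2 averaged 2.73 CPM in BMDM_T and 14.1 in BMDM_H (adjusted p = 0.0166, edgeR). Blvrb, a biliverdin and flavin reductase that macrophages also express, averaged 36.1 CPM in BMDM_T and 70.1 in BMDM_H (adjusted p = 0.00373, edgeR), and its TAM libraries stood at 159, 160 and 164 CPM. The 15 red cell genes with a row that missed the filter had too few reads for the test, and 14 of them had a lower mean in BMDM_T. That number was not compared with all genes that missed the filter. It includes Fam210b, named after its values had been seen, with 12 counts over BMDM_T and 11 over BMDM_H. Tfrc, also named after its values had been seen, went the other way, with 13 counts over BMDM_T and 9 over BMDM_H. Xk, named in the same way, had 10 and 11. Add2, a skeleton protein gene, had 1 count over BMDM_T and 25 over BMDM_H, Tspo2 had 1 and 16, and the transcription factor gene Gfi1b had 9 and 32.

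**Figure D4:**
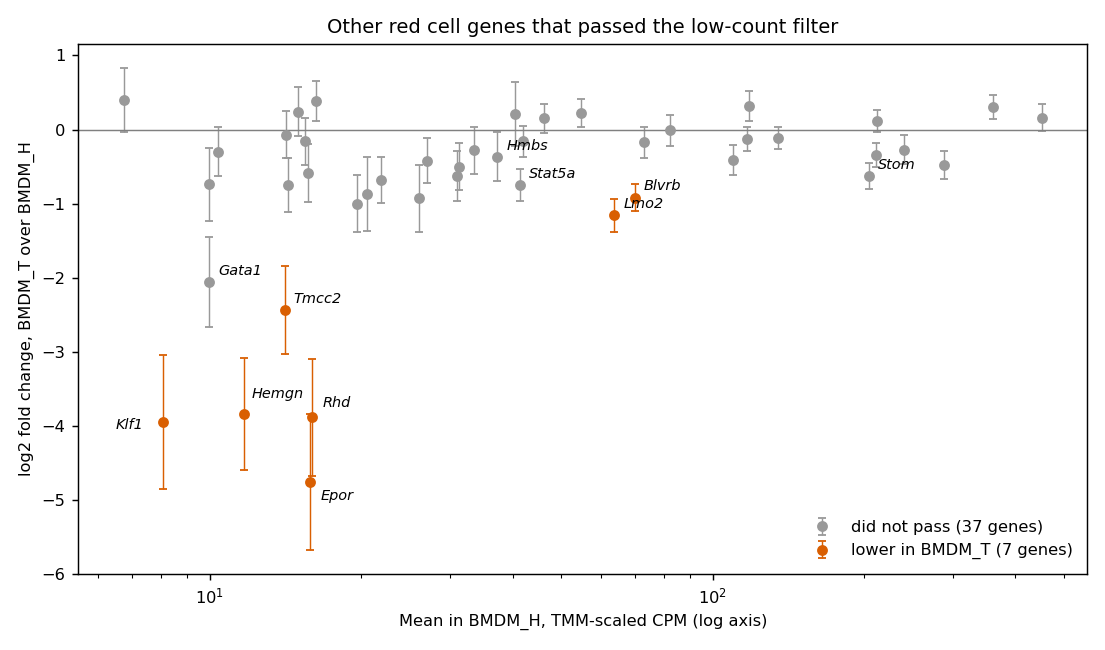
Log2 fold change of BMDM_T over BMDM_H, with SE bars, for the 44 other red cell genes that passed the filter, against their mean level in BMDM_H in TMM-scaled CPM on a log axis. The 7 genes called lower are in orange, of which Klf1, Hemgn, Rhd, Epor and Tmcc2 lie under -2 at less than 20 CPM, while most of the 37 others lie near 0.

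In TAM, 7 of the 59 other red cell genes with a row were at 0 counts, among them Rhd, Add2, Pklr and Hemgn. Against BMDM_T, TAM was lower for 17 of the 44 tested genes and higher for 6, beside 28.8% and 30.1% of all tested genes. Against BMDM_H it was lower for 24 and higher for 7, beside 28.3% and 28.0%. The summed level of the 59 genes was 4534 ± 753 CPM in TAM (SD, n = 3), 3069 ± 166 CPM in BMDM_T and 3482 ± 321 in BMDM_H (SD, n = 4 each). Trf, the transferrin gene, named after its values had been seen, had 2458 ± 694 CPM of this in TAM (SD, n = 3), 206 ± 27.9 in BMDM_T and 289 ± 49.3 in BMDM_H (SD, n = 4 each). The other 58 genes summed to 2076 ± 66.4 CPM in TAM, 2863 ± 160 in BMDM_T and 3193 ± 284 in BMDM_H.

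Genes were also ranked by how like their pattern over the 11 libraries was to the mean profile of the 8. Likeness was the root mean square difference between centered log2(CPM + 1) profiles, taken over 7160 genes with at least 5 CPM in BMDM_H, and it is a description without a test. The 6 closest were Rhd (0.459), Klf1 (0.477), Hemgn (0.513), Epor (0.633), Samd14 (0.682) and Gpd1 (0.733), against a median of 1.85. The first 4 of these are on the red cell lists, and Samd14 and Gpd1 are not. At most 44 genes of those lists were among the 7160. Those 4 were called lower in BMDM_T above from the same libraries, so their rank is no support of its own. The 8 genes themselves ran from 0.230 for Alas2 to 1.64 for Ermap, which was the least like the others. Samd14 had 0.951 CPM in BMDM_T and 10.7 in BMDM_H, and Gpd1, the cytosolic glycerol-3-phosphate dehydrogenase, had 1.00 CPM in BMDM_T and 9.62 in BMDM_H.

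Genes of other marrow cells moved between BMDM_T and BMDM_H as well, and their part in the results above was not tested. Of 15 tested genes of erythroblastic island macrophages, the cells that erythroblasts cling to, 11 were lower in BMDM_T and 0 higher, with a median log2 fold change of -1.46. Over all tested genes 2.00% were called lower and 2.82% higher, with a median of -0.02. The 18 of these genes with a row summed to 614 CPM (428 to 747) in BMDM_T and 1605 (1129 to 2365) in BMDM_H, and 0 of them were at 0 in either group. In BMDM_H replicates 1 to 4 that sum was 1129, 1473, 1454 and 2365 CPM, lowest and highest in the same libraries as the sum of the 8 genes. This was not particular to the macrophage list. The osteoclast sum, at 115, 144, 140 and 165 CPM, was lowest and highest in the same libraries. Library totals fell from replicate 1 to 4, and the part of depth was not tested. Vcam1, the adhesion molecule that binds erythroblasts, averaged 8.10 CPM in BMDM_T and 29.1 in BMDM_H (log2 fold change -1.85 ± 0.31 SE, adjusted p = 9.62e-04, edgeR). The complement gene C1qb averaged 60.7 CPM in BMDM_T and 170 in BMDM_H, and the ficolin gene Fcna 26.9 CPM in BMDM_T and 116 in BMDM_H, with adjusted p-values of 0.00151 and 0.00164 (edgeR). In TAM, which held 0 counts of 5 of the 8 red cell genes, the same 18 genes summed to 29219 CPM (26150 to 33703). Most of that was C1qa, C1qb and C1qc, named after their values had been seen, with 17764, 5791 and 4178 CPM. In BMDM_H these 3 had 642, 170 and 140 CPM, and in BMDM_T 194, 60.7 and 56.1 CPM. Of the 15 tested genes 9 were higher in TAM than in BMDM_H and 3 lower, beside 28.0% and 28.3% of all tested genes.

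The counts for other cell types stand beside 2.00% of all tested genes called lower in BMDM_T and 2.82% called higher. Monocyte genes were lower in BMDM_T for 7 of 12 tested and higher for 0, among them Ccr2, Klf4 and Cx3cr1 (log2 fold changes of -1.11 ± 0.17, -1.25 ± 0.20 and -1.72 ± 0.28 SE). All 12 had a log2 fold change below 0, with a median of -0.83. Neutrophil granule genes were higher for 6 of 14, led by Prtn3, Mpo and Elane (2.05 ± 0.18, 1.79 ± 0.19 and 1.59 ± 0.18 SE). None of the 14 were called lower, and 3 had a log2 fold change below 0. Of the sort antigens 2 of 5 tested were lower, Ly6c2 and Adgre1, the F4/80 gene. B lineage genes were higher for 3 of 6 tested (Vpreb1, Vpreb3 and Igll1), and 1 of the 6 had a log2 fold change below 0. Of 3 tested T and NK cell genes Nkg7 was higher. Cd3d averaged 124 CPM in BMDM_T and 198 in BMDM_H and was not called (adjusted p = 0.0748, edgeR). The T and NK cell genes with a row summed to 284 CPM in BMDM_T and 273 in BMDM_H. Among 6 tested megakaryocyte and platelet genes, 3 of stem and early progenitor cells and 4 of eosinophils, basophils and mast cells, 0 passed with edgeR, DESeq2 or limma-voom, and 1, 0 and 1 had an unadjusted p under 0.05. Megakaryocytes share much of the GATA1 program with red cells, and their 12 genes with a row summed to 146 CPM (113 to 193) in BMDM_T and 213 (126 to 273) in BMDM_H. All 6 tested megakaryocyte and platelet genes had a log2 fold change below 0, with a median of -0.46. The median over all tested genes was -0.02. A shift below 0 was thus not particular to the red cell lists.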

How the data were processed

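Raw counts per gene were deposited by the authors in 1 table of 24421 rows for 17 libraries. The tools bcl2fastq, STAR 2.4.2a and HTSeq and the build mm10 are named, per the submitters' processing notes. Libraries were 3′-end mRNA libraries with molecular identifiers, per the labels' protocols. Whether identifiers were collapsed is not given, nor are the annotation, strand setting and gene filter stated, in the sources used here. Symbols fill 10207 rows, which hold all counts of the 11 batch 1 libraries. Batch 2 (4 BMDM_H and 2 MGM libraries, mammary gland macrophages) was not analysed by gene, since its rows did not match the symbols (Spearman correlation with batch 1 libraries of -0.02 to 0.0 over 66 pairs). CPM refer to the genes in the table.

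The 8 genes and the gene lists were chosen with earlier results of these data known. The 21 lists had 283 entries, 177 with a matching symbol. Counts were fitted in R 4.3.3 with edgeR 4.0.16 (filterByExpr, TMM, estimateDisp, glmQLFit, glmQLFTest) in 1 fit of TAM, BMDM_T and BMDM_H. filterByExpr kept genes with 8.6 CPM in at least 3 libraries and 15 counts in all. The SE of a log2 fold change is its unshrunken value over the root of the F statistic. Where a group had 0 counts, the fold is a bound, the pooled counts of the other group against 3 counts pooled over the group, both scaled for depth. DESeq2 1.42.0 and limma 3.58.1 (voom) were alternatives, with other scalings, no filter, and libraries left out. Each pair of replicates differed beyond sampling noise (chi-square per degree of freedom 2.67 to 14.62).

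Named genes were the 8 genes, red cell and family list genes called in BMDM_T against BMDM_H, up to 3 genes per other list by smallest p, and the 6 most alike. Other genes are said to be named after their values had been seen, or, for Cldn15, Aqp9, Car9, Slc4a2 and the genes below the filter, were named as the tested or largest examples of their list.

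Same-numbered BMDM_T and BMDM_H libraries deviated together from their group means (r across genes of 0.22, 0.24, 0.13 and 0.13), over the limit of 0.1 for treating the numbers as pairs, although the labels do not say what a number shares. For TAM and BMDM_T r was 0.02, -0.03 and 0.08. The replicate block was an alternative fit.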

Additional observations from a re-analysis of the deposited data

Results flagged for a closer look

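Of 18 groups of 4 libraries looked at, 4 values stood far from the others of their group, all in BMDM_T, and chance alone flags about 1 in 20 such groups. Slc4a1 was at 1.07 CPM in BMDM_T replicate 1, where the other libraries of the group were at 0. Ermap and Alas2 were both at 0.834 CPM in BMDM_T replicate 2, where the others were at 0. Each of these 3 values is a single count among libraries at 0. Such a count is flagged wherever it occurs, so the rate of 1 in 20 does not apply to them. The summed level of the 8 genes was 30.02 CPM in BMDM_T replicate 2, against 9.84 to 12.8 CPM in the other libraries of that group, and rests on 36 counts.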

How the results depend on the processing

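Over 32 other settings, 232 of 235 values of the 8 genes in BMDM_T against BMDM_H kept their direction and side of the threshold and 3 lost the call (Ermap with limma-voom, and, with the genes of the full fit kept, Car1 without BMDM_H replicate 2 and Kel without BMDM_H replicates 3 and 4). In TAM against BMDM_T 154 of 174 did, 7 lost a call (Aqp1 and Car1) and 13 gained one (Car2). In TAM against BMDM_H 236 of 240 did, and Ermap turned from -0.46 to 0.53 with limma-voom and to 0.08 with the replicate block (adjusted p = 0.510 and 0.912); the cause was not tested. The replicate block left the genes called lower at 8, 2 and 7 in the 3 comparisons and changed no call of the 8 genes. Leaving out 1 library gave 4 to 8, 0 to 3 and 3 to 8 genes called lower in BMDM_T against BMDM_H, TAM against BMDM_T and TAM against BMDM_H, 2 to 9 other red cell genes and 239 to 409 genes in all for the first. The drop to 4 (without BMDM_H replicate 2, 3 or 4) comes from the filter, which then removes Kel, Cldn13, Alas2 and Car1. With the genes of the full fit kept, an alternative chosen after seeing the data, 7 to 8 were called lower, with 6 to 8 other red cell genes and 242 to 385 genes in all. Without BMDM_H replicates 3 and 4, the shallowest libraries, 4 of the 8, 2 other red cell genes and 179 genes were called (3 and 182 with genes kept), and 3 of the 8 in TAM against BMDM_H. Fits of only the 2 groups compared tested and called 3 of the 8 and 3 other red cell genes in BMDM_T against BMDM_H, and 0 of the 8 in TAM against BMDM_T, where none passed the filter. Scaling by total counts shifted the median log2 fold change of all genes by -0.11 in BMDM_T against BMDM_H (0.15 in TAM against BMDM_T) and, in the first, turned 212 higher and 150 lower calls (41.4% lower) into 156 and 218 (58.3% lower), with 8 of the 8 genes called lower. Counts of 0 or 1 in BMDM_T limit how well the size of the largest falls is known.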
